A study of Rattus norvegicus with 4 samples.

Results

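The transcripts described here are those of Hbb, Epb42 and Alas2, genes best known from red blood cells, as measured in whole liver of female Fischer rats that had received ciprofibrate. They were found by gene symbol in the annotation of a two-colour cDNA array, and 7 of its 7688 spots carry one of the 3 symbols. Hbb has 4 spots, Epb42 has 1 and Alas2 has 2, and the spots of each gene are repeats of a single cDNA clone. None of the 7 is listed under a second symbol.

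Red blood cells are made in the bone marrow, and a liver taken without washing also holds the reticulocytes and red cells in its vessels. Hbb encodes an adult beta-globin chain of hemoglobin. Epb42 encodes a protein of the red cell membrane skeleton that binds the anion exchanger Slc4a1 and ankyrin. Alas2 encodes the erythroid form of aminolevulinate synthase, which starts heme synthesis in red cell precursors, while its paralog Alas1 does so in liver cells.

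Each of 4 arrays compared the liver RNA of a treated rat with RNA pooled from the livers of 5 control rats. The treated animals received 50 mg of ciprofibrate, a fibrate that activates the nuclear receptor PPARα, per kg of body weight and day over 60 days. The labels give neither the age of the rats nor what the controls received, and they do not say whether the livers were perfused. Values are log2 ratios, averaged over the spots of a clone and centred on the median of each array, with n = 4 arrays. The labels name the treated liver as the first channel and give no dyes, so a positive ratio is read as likely higher in the treated livers. Of 9 textbook targets of PPARα, picked with earlier results of these data known, 6 had a positive mean and 3 a negative one. The positive ones were led by the peroxisomal enzyme gene Ech1 at 0.67 (limma adjusted p = 0.00394). Me1 and Acsl1 also passed the test (limma adjusted p = 0.0125 and 0.0257), while Decr1, Acadm and Cpt2 did not. Of the negative ones, the thioesterase gene Acot2 passed at -0.39 (limma adjusted p = 0.0175). Over all genes, 17.1% were positive and 16.6% negative calls. This narrow split leaves the direction unsure.

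Between 6499 and 6517 of the 7688 spots per array counted as measured, after the most repeated value of each array was set to missing. Over all spots the arrays correlated at Pearson's r between 0.669 and 0.759 among replicates 1, 3 and 4. Where replicate 2 was one of the pair, r lay between 0.462 and 0.529, so replicate 2 stood apart by this measure. Of 4704 clones with a ratio on every array, 28.6% passed the threshold, 15% as negative and 13.6% as positive (limma, Benjamini-Hochberg adjusted p under 0.05, two-sided). The ratio also went with the place of a spot, in printing blocks inferred from these same ratios. The median of the left column of blocks minus that of the right was 0.12 (log2) on replicate 2. It was 0.20, 0.36 and 0.53 on replicates 1, 3 and 4. The correlations were not corrected for place, and its part in the lower values of replicate 2 was not tested. With each clone placed by its first spot, the right column of printing blocks held 49.3% of the clones and 72.4% of the negative calls. Hbb counted as left in this, because its first spot, which had no ratio, lies there. Every spot of the 3 genes that was measured on all arrays lies in the right column. The pool counts as 1 control sample, and variation among the 5 control rats is left out of each test.

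Hbb and Epb42 had negative ratios on every array, and Alas2 did not. The log2 ratio of the Hbb clone averaged -0.88 ± 0.24 (SD, n = 4), which is likely 1.84-fold lower in the treated livers (limma adjusted p = 0.00449). The Epb42 clone was at -0.73 ± 0.30, likely 1.66-fold lower (limma adjusted p = 0.00976). The Alas2 clone was at 0.11 ± 0.22 and did not pass (limma adjusted p = 0.505). In a whole liver, fewer blood cells and less RNA per blood cell cannot be told apart. Negative ratios on all 4 arrays were found for 25.6% of the tested clones, so that this sign pattern alone is common on these arrays. Means as low as that of Hbb were less common, at 3.72% of clones, and means as low as that of Epb42 at 5.42%. The Hbb mean includes a spot measured on replicate 3 alone, and with only the spots measured on all arrays it was -0.75. A mean as high as that of Alas2 or higher was found for 36% of clones.

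**Figure D1:**
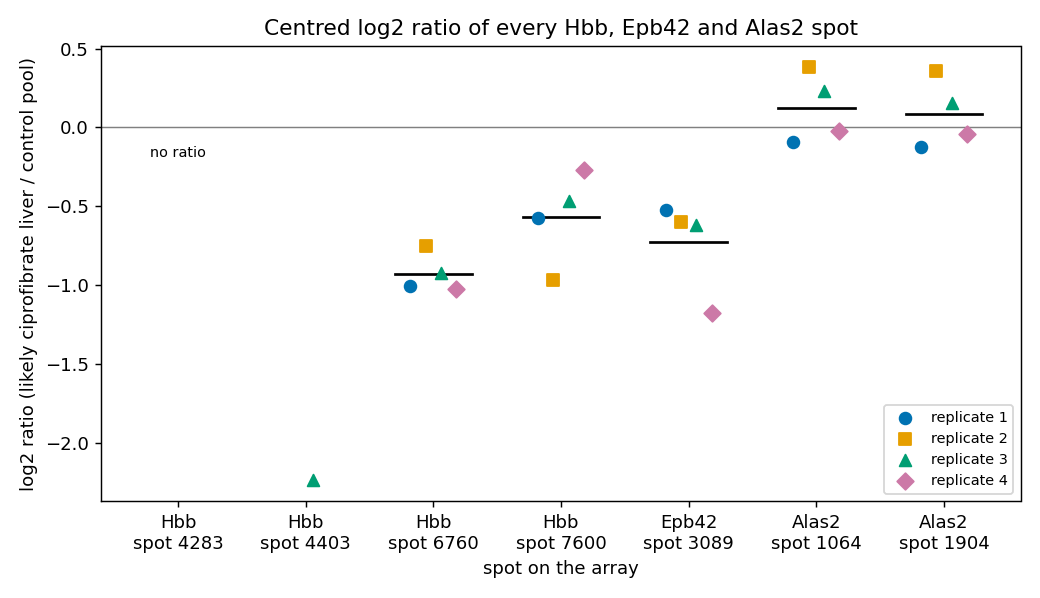
Centred log2 ratio (vertical axis) of the 7 spots of Hbb, Epb42 and Alas2 (horizontal axis), with 1 symbol per replicate and a line at the mean of each spot measured on 4 arrays. The Hbb and Epb42 spots lie below 0 on every array where they have a ratio, while the Alas2 spots lie on both sides of 0.

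The promoters of the 2 genes with negative ratios are shown for their sequence context. They are the 250 bases before the RefSeq start of each gene in the GRCr8 assembly, read on the gene's own minus strand, at chr1:167663722-167663971 for Hbb and chr3:128451684-128451933 for Epb42. Capitals mark matches on either strand to CACCC, a motif of Klf factors, CCAAT, bound by CCAAT-binding factors, and GATAA, a motif of GATA factors.
Hbb: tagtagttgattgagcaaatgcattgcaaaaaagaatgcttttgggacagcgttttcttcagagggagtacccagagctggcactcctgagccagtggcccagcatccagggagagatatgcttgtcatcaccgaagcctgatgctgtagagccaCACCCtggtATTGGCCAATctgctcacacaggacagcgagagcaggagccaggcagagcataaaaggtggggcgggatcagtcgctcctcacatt
Epb42: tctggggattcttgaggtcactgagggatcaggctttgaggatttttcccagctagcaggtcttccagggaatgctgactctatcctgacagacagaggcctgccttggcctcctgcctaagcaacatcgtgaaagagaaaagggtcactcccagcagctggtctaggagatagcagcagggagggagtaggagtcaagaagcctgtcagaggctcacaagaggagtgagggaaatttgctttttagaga
The Hbb window holds CACCC beginning 95 bases before the start and CCAAT once on each strand, in matches that lie back to back and begin 86 and 81 bases before it. The Epb42 window holds none of the 3 motifs in these letters, and other forms of the motifs were not searched for. Of 33469 promoter windows of the same length, 49.2% hold CACCC, 34.0% CCAAT and 23.5% GATAA, so a match to CACCC or CCAAT alone is common. The window listed for Alas2 begins at a start that lies 4800 bases inside the annotated gene, and it is not shown.

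Hbb is the gene of the set with the most spots and the least even ones. Spot 6760 was at -1.01, -0.75, -0.92 and -1.02 (log2) on replicates 1 to 4. Spot 7600 was at -0.58, -0.97, -0.47 and -0.27. Both were negative on every array, and spot 6760 was the lower of the pair except on replicate 2. Taken as rows of their own, each passed as negative (limma adjusted p = 0.00227 for spot 6760 and 0.0165 for spot 7600).

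The other pair of Hbb spots gave almost no data. Spot 4283 had no ratio on any array, and spot 4403 had one on replicate 3 alone, at -2.24, a deposited linear ratio of 0.207. That single value entered the average of the clone on replicate 3, which was therefore at -1.21, against -0.79, -0.86 and -0.65 on replicates 1, 2 and 4. With only the spots measured on all arrays, the Hbb mean was -0.75 and stayed a negative call (limma adjusted p = 0.00426). Spots with a ratio on 1 array were often low on this platform. Of the ratios of the 132 such spots, 48.5% lay under -1 (log2), against 3.88% of those from the 6370 spots measured on all 4 arrays. Of 17 clones printed as 4 spots, 6 had this split between spots measured on all arrays and spots measured on at most 1. The Hbb clone is counted among the 17 and among the 6.

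The spread between spots of one clone could be set against that of other clones. Over 1600 clones with exactly 2 spots measured on every array, the absolute difference between the spots had a median between 0.08 and 0.09 (log2) on the 4 arrays. The Hbb spots differed by 0.43, 0.22, 0.46 and 0.76 on replicates 1 to 4. Averaged over the arrays, their difference of 0.47 was reached or exceeded by 3.06% of the pairs. The Alas2 spots differed by 0.04 on average, which 93.2% of the pairs reached. The Hbb spots thus repeated each other less closely within an array than most pairs did, and the Alas2 spots more closely.

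**Figure D2:**
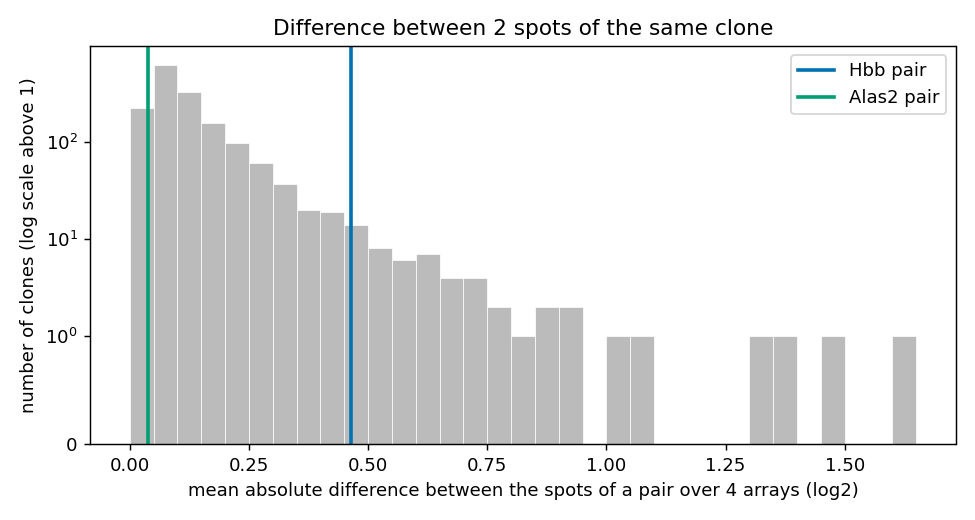
Number of clones (vertical axis, log scale above 1) by the mean absolute difference between their 2 spots over 4 arrays, in log2 (horizontal axis), for 1600 clones. The Hbb pair lies at 0.47, in the right tail, and the Alas2 pair at 0.04, at the left end.

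A cDNA clone of Hbb can also bind transcripts of related genes. In the gene order of GRCr8, Hbb is followed on one side by Hbb-b2, Hbbl1, Hbb-b1 and Hbb-bs, and on the other by Hbg1, Hbe2 and Hbe1. The clone sequence was not checked, so the ratio may stand for more than one adult beta-globin transcript. Hbg1, a globin of the embryonic and fetal type, was singled out after its values were seen. It was the only other listed globin gene found among probes with 1 symbol, and probes with several symbols were not searched for other globins. Its 3 spots share one clone, and 1 of them stood apart from the other pair. Spot 2982 was at 0.04, 0.23, 0.20 and -0.05 on replicates 1 to 4 and spot 3102 at -0.00, 0.28, 0.19 and -0.04. These spots repeated each other closely, while spot 5353, in another block, was at -0.25, -0.998, -0.43 and -0.21. The average of the 3 spots was below 0 on every array, at -0.09 ± 0.06 (SD, n = 4), and did not pass (limma adjusted p = 0.492).

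Epb42 rests on a single spot. Spot 3089 was at -0.52, -0.60, -0.62 and -1.17 on replicates 1 to 4, all below 0, with replicates 1 to 3 close together and replicate 4 much lower. The SD of 0.30 was above the median SD of the tested clones, 0.21. Without replicate 4 the mean was -0.58 and the call held (limma adjusted p = 0.0303). With no repeat spot on the array, the spread within an array is unknown for this gene. Slc4a1, the membrane partner of the Epb42 protein, has 2 spots, of which one had no ratio and the other only on replicate 4, at -2.51. It could therefore not be tested, and spots with a ratio on 1 array were often low on this platform. The erythropoietin receptor gene Epor had no ratio on either of its spots. The spots of Slc4a1 and Epor lie in the same block as Hbb spots 4283 and 4403.

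Alas2 stayed close to 0. Spot 1064 was at -0.09, 0.39, 0.23 and -0.02 on replicates 1 to 4, and spot 1904 at -0.12, 0.36, 0.15 and -0.04. Replicates 2 and 3 were above 0 and replicates 1 and 4 below it on both spots, so the arrays differed more than the spots did. The mean was 0.02 without replicate 2, the array with the lower correlations, and it passed the threshold under no setting tried.

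Differences between the genes were taken within each array, for 3 pairs. Hbb minus Alas2 was -0.68, -1.23, -1.40 and -0.61 on replicates 1 to 4, a mean of -0.98 ± 0.39 (SD, n = 4). Epb42 minus Alas2 was -0.41, -0.97, -0.81 and -1.14, a mean of -0.84 ± 0.31. Hbb and Epb42 were thus both below Alas2 on each of the 4 arrays. The exact sign-flip test gave p = 0.13 for either pair (two-sided), the smallest p that 4 arrays allow, and 0.19 after adjustment over the 3 pairs. Hbb minus Epb42 was -0.27, -0.26, -0.59 and 0.53, a mean of -0.15 ± 0.48 (exact sign-flip p = 0.5), and its sign was turned on replicate 4. That difference shrank to -0.02 with only the Hbb spots measured on all arrays.

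The place of the spots moved with these ratios in part. The median of the spots within 2 rows and columns of Hbb spot 6760 was -0.25, -0.13, -0.16 and -0.21 on replicates 1 to 4, and the spot minus that median was -0.74 ± 0.09 (SD, n = 4). Hbb spot 7600 minus its neighbours was -0.38 ± 0.16, and Epb42 minus its neighbours was -0.60 ± 0.18. These differences were negative on every array. Around Epb42 the median was lowest on replicate 4, at -0.31, against -0.03, -0.05 and -0.14 on replicates 1 to 3. For Alas2 the spots minus their neighbours were at -0.13 ± 0.12 and 0.23 ± 0.30. With a smooth surface over the slide subtracted from each array, Hbb was at -0.82 and Epb42 at -0.60, and both stayed negative calls (limma adjusted p = 0.0112 and 0.0183), in a setting where 11.3% of clones were negative calls. Alas2 was at 0.09 there (limma adjusted p = 0.514).

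**Figure D3:**
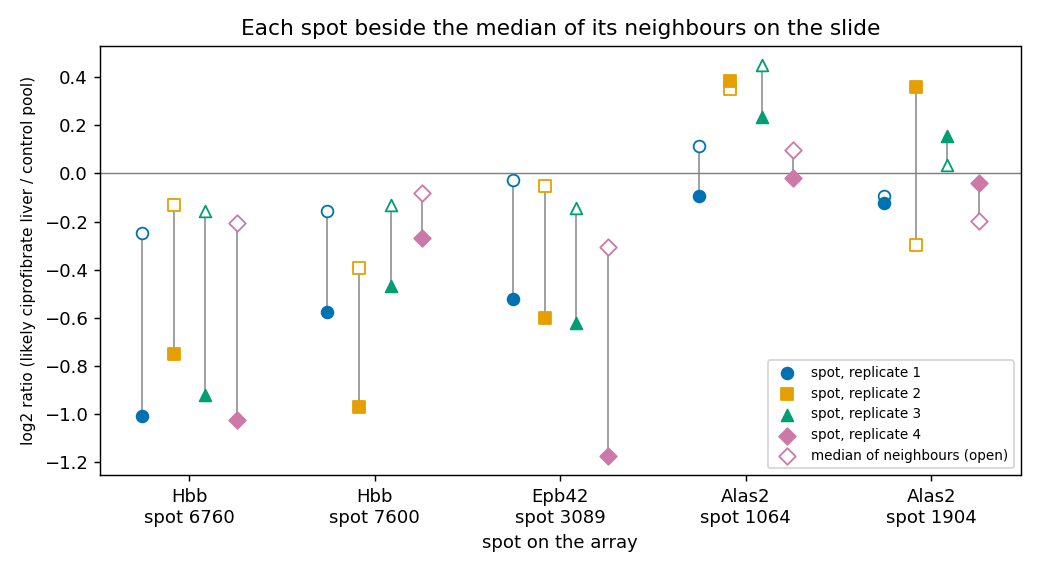
Log2 ratio (vertical axis) of the 5 spots measured on every array (filled symbols) and the median of their neighbours within 2 rows and columns (open symbols), for replicates 1 to 4, by spot (horizontal axis). Every filled symbol of Hbb and Epb42 lies below its open symbol, while those of Alas2 lie on both sides.

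Beyond Hbb and Epb42, no listed red cell gene measured on every array was a negative call. Of 58 listed erythroid and red cell membrane genes, 15 were found among probes with 1 symbol. Of these, 13, with Hbb, Epb42 and Alas2 among them, had a ratio on every array. In the fit of genes, 2 passed as negative, 3 as positive and 8 did not pass, while 16.6% of all 2644 genes were negative and 17.1% positive calls. The 2 negative ones were Hbb and Epb42, the genes that led to the choice of the list. The list had a median of 0.07 (log2), or 0.02 without replicate 2, against 0.01 over all genes. Car2, a carbonic anhydrase gene of red cells and other tissues, was singled out after its values were seen. It was at -0.52, -0.02, -0.27 and -0.61 on replicates 1 to 4, below 0 on every array, with a mean of -0.35 ± 0.27 (SD, n = 4) just short of the threshold (limma adjusted p = 0.0516). Car2 was a negative call with quantile normalization, with array weights and without replicate 2.

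The positive genes of the list were Stom, which encodes the membrane protein stomatin, Gata1, the transcription factor of erythroid and megakaryocyte development, and Rhd, a blood group membrane protein. Stom was at 0.23, 0.62, 0.44 and 0.37 on replicates 1 to 4 (mean 0.41 ± 0.16, SD, n = 4, limma adjusted p = 0.019). Gata1 was at 0.18, 0.69, 0.34 and 0.41 (mean 0.40 ± 0.21, limma adjusted p = 0.0266). Both were above 0 on all arrays and highest on replicate 2. All 3 positive calls ended with the position surface subtracted, a setting in which 13.5% of genes were negative and 4.2% positive calls, and there Stom was at 0.24 ± 0.22 and Gata1 at 0.11 ± 0.19 (limma adjusted p = 0.119 and 0.367). They also ended with block medians subtracted, without replicate 3 and without replicate 4. Hbb and Epb42 were negative calls in the fit of genes in each of those settings.

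**Figure D4:**
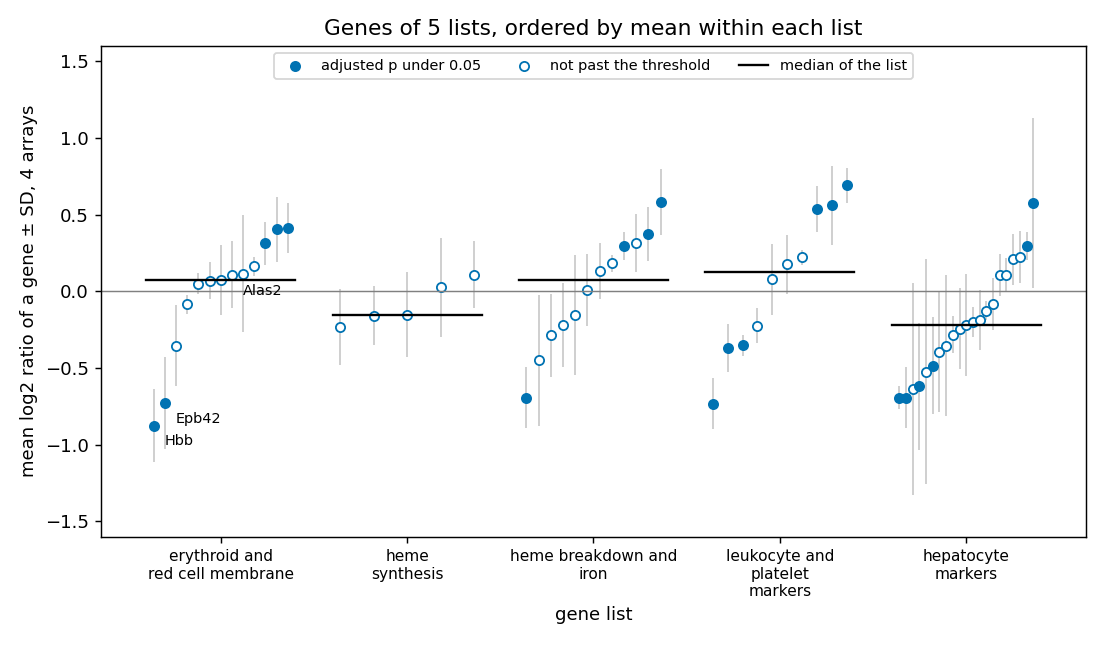
Mean log2 ratio ± SD over 4 arrays (vertical axis) of each gene of 5 lists (horizontal axis), ordered by mean within a list, with filled points at an adjusted p under 0.05 and a line at the median of each list. Hbb and Epb42 are the lowest erythroid genes, and the median of that list, at 0.07, lies near 0.

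Heme synthesis showed no call. None of 5 measured genes passed, Alas2 included, and the median was -0.15, or -0.01 without replicate 2. At an unadjusted p under 0.05 the limma fit also held 0 of the 5. The lowest p was that of Uros, which encodes uroporphyrinogen synthase, at -0.01, -0.24, -0.58 and -0.10 on replicates 1 to 4 (mean -0.23 ± 0.25, limma adjusted p = 0.156). Alas1, the paralog of Alas2 used by liver cells, was at -0.35, 0.05, -0.29 and -0.04 (mean -0.16 ± 0.19, limma adjusted p = 0.274). With the surface subtracted Alas1 was at -0.44 ± 0.21 and became a negative call (limma adjusted p = 0.0285). Both Alas1 and Uros were negative calls with array weights, and Uros with block medians subtracted.

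Genes of heme breakdown and iron handling, many of them active in liver cells, held calls of both signs. The 12 measured genes held 3 positive calls, 1 negative call and 8 genes without one, beside 17.1% positive and 16.6% negative calls over all genes, and their median was 0.07. The negative one was Tf, the iron carrier transferrin, at -0.50, -0.94, -0.77 and -0.57 on replicates 1 to 4 (mean -0.69 ± 0.20, limma adjusted p = 0.00498), below 0 on every array. It held with the surface subtracted, at -0.66 ± 0.19 (limma adjusted p = 0.00846). The positive ones were Hpx, the heme scavenger hemopexin, Bmp6, a signal for hepcidin, at 0.58 ± 0.21, and Hmox2, the constitutive heme oxygenase, at 0.37 ± 0.18, and none of these calls held with the surface subtracted. Bmp6 stayed a positive call with block medians subtracted and with each array left out. Hpx and Hmox2 were not calls with block medians subtracted, without replicate 3 or without replicate 4.

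Markers of the other cells in a liver sample were read beside these genes. Among 10 measured leukocyte and platelet markers there were 3 positive and 3 negative calls and 4 genes without one, beside 17.1% positive and 16.6% negative calls over all genes. Their median was 0.13, with medians between -0.09 and 0.21 on single arrays. With the surface subtracted the calls were 1 positive and 2 negative, and with block medians subtracted 5 positive and 2 negative, at a median of 0.23. Without replicate 1, 3 or 4 there were 3 positive calls and 1 negative call. The platelet factor gene Pf4 was at 0.54 ± 0.15 (SD, n = 4), or 0.31 and no longer a call with the surface subtracted (limma adjusted p = 0.0954). The mast cell chymase gene Cma1 was at 0.69 ± 0.11, or 0.38 with the surface subtracted, where it stayed a positive call (limma adjusted p = 0.0307). Coro1a, an actin regulator of leukocytes, was at -0.73 ± 0.17, and Cd74, the invariant chain of antigen presentation, at -0.35 ± 0.07, or -0.62 with the surface subtracted, and both were negative calls in either setting. Without replicate 1, 3 or 4, Coro1a stayed a negative call and Cd74 did not. The T cell marker Cd3d had no ratio on any array. The part of blood content in the Hbb ratio was not tested.

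The 21 measured hepatocyte markers held 4 negative and 2 positive calls, and 15 genes without one, near the 16.6% negative calls over all genes and below the 17.1% positive ones. Their median was -0.22, or -0.14 without replicate 2 and -0.10 with block medians subtracted. The medians on single arrays lay between -0.24 and -0.11, so that on every array hepatocyte markers were below the median gene as well. F2, which encodes prothrombin, was at -0.70 ± 0.08 and Tf is given above. Rbp4, the plasma carrier of retinol, was at 0.58 ± 0.55, with replicate 2 alone below 0, and Hpx at 0.30 ± 0.09, and neither of these calls held with the surface subtracted. Without that subtraction, the means of F2 and Tf, the lowest of this list, were less negative than those of Epb42 and Hbb. That order changed with the surface subtracted, where Tf was at -0.66 and F2 at -0.62 beside Epb42 at -0.60. Hbb, at -0.82, stayed below F2 and Tf there. The marker Serpina1 was lower still, at -0.89 ± 0.73, and was not a call (limma adjusted p = 0.0577).

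The genes whose 4 ratios lay closest to those of each red cell gene were found among 2643 others by the mean absolute difference over the 4 arrays. For Hbb they were Akt2 at 0.13 (log2), Cttn at 0.15 and Mast3 at 0.16, with the Hbb spot measured on replicate 3 alone included in its values. For Epb42 they were Rab3d at 0.08, Luc7l at 0.11 and Cdc37 at 0.11. For Alas2 they were Slc2a1, a glucose transporter gene, at 0.05, Col6a2 at 0.05 and Mmp23 at 0.05. Neither Hbb nor Epb42 was among the closest genes of the other, and of these 9 genes only Slc2a1 is in the erythroid list.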

How the data were processed

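Per the labels, each of 4 two-colour cDNA arrays compared liver RNA of a ciprofibrate-treated rat with 1 control pool. The labels give no number for the rat, so the arrays are assumed to hold different rats and p-values measure the spread between arrays. Replicates are numbered by the sample order. The authors deposited 1 log10 ratio per spot, with dyes, scanner, background correction and any normalization not given in the sources used here. The medians of the deposited log10 values were -0.0168, -0.035, -0.0283 and -0.0462 on replicates 1 to 4, so any centring and the direction stay unknown. That the unit is log10 was read from the values: the linear ratio, in thousandths, was whole within 0.02 for at least 99.99% of spots. The most repeated value of each array, on 1171 to 1189 spots, was set to missing. With no intensities, signal over background is unknown, and the number of arrays limits the precision.

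Values were converted to log2. Spots of a listed clone were averaged, giving 5674 rows, and the median of every array was set to 0. Rows with a ratio on all 4 arrays were tested against 0 with limma 3.58.1 in R 4.3.3 (lmFit, eBayes, Benjamini-Hochberg adjustment over all rows). The test was tried on simulated data with independent noise for each row and array and no effect of slide position. That trial cannot show how the test behaves under such an effect. Gene lists were read in a fit with 1 row per gene, from probes with 1 symbol. Symbols come from an older platform annotation, updated to GRCr8 by Entrez number for 5140 of the 5252 listed probes (5169 with 1 symbol, 83 with several), and 2436 probes are unnamed here. Promoter sequences are RefSeq's. Slide positions are inferred: ratios repeated with a period of 31 spots, read as 8 blocks of 31 by 31 in 2 columns. The surface is a robust loess (span 0.05, degree 1). The genes, lists and alternatives were chosen with earlier results of these data known. Named genes are all spots of the 3 genes, the 2 smallest p of each sign among the calls of a list (or the 2 smallest p where none was called), and the 3 nearest genes of each. Rhd, Hbg1, Car2, Slc4a1, Epor, Cd3d, Serpina1, Ech1, Me1, Acsl1, Decr1, Acadm, Cpt2 and Acot2 are named outside that rule, chosen after their values were seen.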

Additional observations from a re-analysis of the deposited data

Results flagged for a closer look

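Epb42 on replicate 4, at -1.17 (log2), lay far from the other 3 arrays, which ranged from -0.62 to -0.52. The gap made up 0.851 of the range of the 4 values, above the 95% critical value of Dixon's test for 4 samples. Of 34 sets of values examined in this way, 1 was singled out, and chance does so in about 5% of sets. The neighbours of the spot were also lowest on replicate 4, and the spot minus its neighbours was -0.87 there, against -0.50, -0.55 and -0.48 on replicates 1 to 3. The part of slide position in this value was not tested further.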

How the results depend on the processing

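Hbb and Epb42 were negative calls and Alas2 was not called under each alternative run: no centring, quantile normalization, spots or genes as rows, a ratio on at least 3 arrays, a robust prior, array weights, the position surface, block medians and each array left out. With an array left out, Hbb ranged from -0.95 to -0.77, Epb42 from -0.80 to -0.58 and Alas2 from 0.02 to 0.18. The added averages over other sets of Hbb spots gave -0.75 and -0.80. The difference Hbb minus Epb42 fell to -0.00048 without replicate 3, and no pair changed sign. The counts over all clones varied more than the members. From 638 positive and 706 negative calls they went to 1148 and 1211 with array weights. Positive calls numbered 134 (beside 531 negative ones) with the surface and 380 with block medians subtracted. With an array left out, positive calls lay between 99 and 872 and negative ones between 323 and 895. The counts without replicate 2 were the highest of these. The cause of the changes in these counts was not tested. The median of hepatocyte markers was -0.10 with block medians subtracted and between -0.27 and -0.14 with an array left out, and that of heme synthesis genes between -0.20 and -0.014. Treated rats could not be paired with single control rats, because the labels give a single group with no replicate numbers and a control pool. Only the differences between genes were paired, within each array. The table holds no signal, so how far depth limits each spot is unknown.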
